A study of Mus musculus with 13 samples.

Results

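The 9 genes described here encode proteins that carry long-chain fatty acids into the mitochondrial matrix and oxidise them there: Slc25a20, Cpt2, Acadvl, Acadl, Acadm, Acads, Hadha, Hadhb and Hadh. Their rows were taken from the count table by gene symbol, as core enzymes of fatty acid beta-oxidation, with no threshold on a measured value. All 9 were found among the 53392 genes of the count table, and all 9 were among the 14317 genes that had enough counts to be tested. RNaseq was performed on whole liver from 13 female mice, 8 to 14 weeks old, that received 28% of their calories from ethanol (Etoh) for 4 weeks. All mice carried both Albumin-Cre and the Rosa26-loxP-stop-loxP-rtTA transgene, so that the reverse transactivator rtTA is made where the Albumin promoter drives Cre, in hepatocytes. Only ASAH+ mice also carried TRE-ASAH1, which doxycycline (Dox) switches on through rtTA to give acid ceramidase, the lysosomal enzyme that splits ceramide into sphingosine and a fatty acid. Dox was given at 200 mg/l in the Etoh-Dox diet, to 4 ASAH- mice (ASAH- Etoh-Dox) and to 5 ASAH+ mice (ASAH+ Etoh-Dox). Another 4 ASAH+ mice had ethanol but no Dox (ASAH+ Etoh). ASAH- mice without Dox and mice without ethanol were not analysed here.

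In beta-oxidation, acyl-carnitines made at the outer mitochondrial membrane enter the matrix through the carrier encoded by Slc25a20, and Cpt2 turns them back into acyl-CoA. An acyl-CoA dehydrogenase chosen by chain length takes the first oxidation step: Acadvl acts on very long, Acadl on long, Acadm on medium and Acads on short chains. Hadha and Hadhb encode the alpha and beta subunits of the trifunctional protein, which performs the remaining steps on long chains at the inner membrane, and Hadh encodes the matrix hydroxyacyl-CoA dehydrogenase for shorter chains. In liver the pathway supplies acetyl-CoA for ketone bodies during fasting, and many of its genes are known targets of the nuclear receptor PPARalpha.

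Titles of the ASAH+ samples contradict their descriptions and induction labels on which mice had Dox, and the descriptions were followed. Asah1 was measured at 9668 to 15935 CPM (counts per 1000000 of a normalised library total) in the 5 ASAH+ Etoh-Dox mice, and at 40.0 to 55.0 CPM in the 8 mice of the other groups, so the descriptions, and not the titles, match the level of the induced gene. Library totals ran from 17819486 to 35358711 counts. The 9 genes had between 1519 counts (Slc25a20) and 15820 counts (Acadvl) in a mouse, so that counting alone gives an error of about 2.57% and 0.795% of these values. Hepatocyte markers were present in all mice (Alb, Apoa1, Ttr, Tat, Cyp2e1 and Fgb summed to 85675 to 132696 CPM). In whole tissue, fewer cells of a type and less RNA per cell cannot be told apart. The labels do not name litters, cages or dates for the mice.

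The promoters are given first. Whether their sequence bears on the levels described below was not tested. The RefSeq promoter windows of the GRCm38.p6 build, 250 bases before to 50 bases after the start of each gene, were searched on both strands for 4 motifs. The nuclear receptor half-site AGGTCA was found in the windows of Acadvl and Acadm, against 16.3% of 32851 mouse promoter windows. A pair of half-sites in the same direction with 1 base between them is the kind of site that PPARalpha is known to bind. Such a pair was found in 0.0396% of all windows and in 0 of the 9. Both half-sites had to match exactly, and only 13 of the 32851 windows held such a pair. At that rarity, 0 of the 9 cannot show whether these genes lack such a site. Inexact pairs and sequence outside the windows were not searched. The E-box CACGTG was in 7.15% of all windows and in 0 of the 9. The GC box GGGCGG was in 35.7% of all windows and in 7 of the 9, the exceptions being Acadvl and Acadm. The windows with a GC box had a GC content of 57.3% (Cpt2) to 70.3% (Acadl), and the 35.7% was not matched for GC content. Hadha and Hadhb start close together, so their windows can hold the same box, and 7 genes need not mean 7 separate sites. Such matches are descriptions of letters in a window and show no binding.

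The stretches below are shown 5′ to 3′, each on the strand of its gene, with motif matches in capitals. Acadm and Acadvl are given because they hold the half-site (the Acadm match is on the opposite strand and reads as its reverse complement), and Acads because its level did not follow the others over all 13 mice; its capitals mark a GC box on the opposite strand. The last stretch is all that separates the divergent starts of Hadha and Hadhb in GENCODE, shown on the strand of Hadhb with GC boxes in capitals. Acadm lies at chr3:153944644-153944893 (minus strand), Acadvl at chr11:70015429-70015678 (minus), Acads at chr5:115119347-115119596 (minus) and the Hadha-Hadhb interval at chr5:30155163-30155247 (plus).
Acadm: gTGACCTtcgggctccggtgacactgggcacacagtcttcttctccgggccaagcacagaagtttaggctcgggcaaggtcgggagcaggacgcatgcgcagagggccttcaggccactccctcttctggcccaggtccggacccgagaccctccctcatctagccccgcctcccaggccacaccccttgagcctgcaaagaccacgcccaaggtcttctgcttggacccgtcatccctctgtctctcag
Acadvl: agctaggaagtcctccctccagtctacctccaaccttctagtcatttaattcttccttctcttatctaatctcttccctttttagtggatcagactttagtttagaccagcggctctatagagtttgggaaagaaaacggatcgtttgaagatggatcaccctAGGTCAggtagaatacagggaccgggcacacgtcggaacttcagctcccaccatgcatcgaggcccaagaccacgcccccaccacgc
Acads: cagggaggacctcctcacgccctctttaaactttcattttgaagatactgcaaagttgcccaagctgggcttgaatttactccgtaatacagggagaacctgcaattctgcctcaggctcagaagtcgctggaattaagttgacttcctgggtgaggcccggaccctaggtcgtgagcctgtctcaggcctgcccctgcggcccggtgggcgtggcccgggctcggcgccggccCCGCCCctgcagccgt
Hadha-Hadhb: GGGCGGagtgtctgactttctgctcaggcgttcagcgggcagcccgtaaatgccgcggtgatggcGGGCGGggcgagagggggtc
In the Acadvl window the half-site spans positions -87 to -82 from the start, and in the Acadm window -249 to -244. The Acads GC box spans -16 to -11. The shared interval of Hadha and Hadhb is 85 bases long with a GC content of 69.4%. In GENCODE the genes of both subunits of the trifunctional protein start at its ends, on opposite strands. The RefSeq start used for the Hadha window differs, since the only GC box in that window spans -188 to -183.

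The 9 genes are spread over 6 chromosomes of GRCm38. Hadha (chr5:30118304-30155162, minus strand) and Hadhb (chr5:30155248-30184593, plus) are neighbours, and Acads (chr5:115110299-115119346, minus) lies far away on the same chromosome. Acadm (chr3:153922357-153944632, minus) and Hadh (chr3:131233419-131272101, minus) share chromosome 3 without being neighbours. The others are Slc25a20 (chr9:108662088-108684641, plus), Cpt2 (chr4:107903981-107923610, minus), Acadvl (chr11:70010183-70015411, minus) and Acadl (chr1:66830839-66863277, minus). Some of their transcript sequence is shared with other genes. Of the distinct words of 31 bases in the annotated transcripts of Hadhb, 23.3% also occur elsewhere, most of them in the processed pseudogene Gm13910, to which at most 11 counts were assigned in any mouse. For Slc25a20 the share was 8.83%, for Acadm 5.98%, all of it in the pseudogene Gm5131 with at most 1 count, for Hadh 2.17% and for Hadha 0.0913%. Cpt2, Acadvl, Acadl and Acads had none. The counts of the genes with shared words are uncertain to the extent that reads were divided between copies. The transcribed region of Acadvl meets that of Dvl2, and that of Hadha meets that of Garem2, on the opposite strand.

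All 9 enzymes were abundant in these livers, together taking 0.250% ± 0.0212 (SD, n = 13) of all counts. The sum was 0.247% ± 0.0287 in ASAH- Etoh-Dox mice (n = 4), 0.249% ± 0.0143 in ASAH+ Etoh-Dox mice (n = 5) and 0.255% ± 0.0257 in ASAH+ Etoh mice (n = 4). The groups overlapped throughout, with single mice at 0.214 to 0.284%, 0.230 to 0.264% and 0.225 to 0.282%. Per kilobase of annotated exons, Acadvl (153 ± 12.97 CPM per kb, SD over 13 mice) and Acadl (145 ± 16.4) were highest. They were followed by Acadm (99.8 ± 9.95), Hadh (70.9 ± 5.51), Acads (66.7 ± 8.08), Cpt2 (58.2 ± 5.35), Hadha (44.8 ± 4.13), Hadhb (39.2 ± 5.34) and Slc25a20 (25.0 ± 4.39). In this order, 3 neighbouring pairs changed places in some mice: Acadvl was above Acadl in 9 of 13 mice, Hadh above Acads in 9 and Acads above Cpt2 in 10, whereas the other 5 pairs kept their order in 13 of 13. This order depends on the length taken for each gene, since the annotated exons of a gene can add up to much more than 1 transcript (8730 bases for Hadha, against 4017 in its longest coding transcript). With the length of the longest coding transcript, Hadh (197 CPM per kb), Acadm (191) and Acadvl (189) led, Hadhb (126) stood above Hadha (97.4) in 13 of 13 mice, and Slc25a20 (67.9) and Cpt2 (58.7) came last. By either length, Acadvl, Acadl and Acadm stood above Acads, and the carrier and Cpt2 stood below the 3 dehydrogenases of longer chains.

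**Figure D1:**
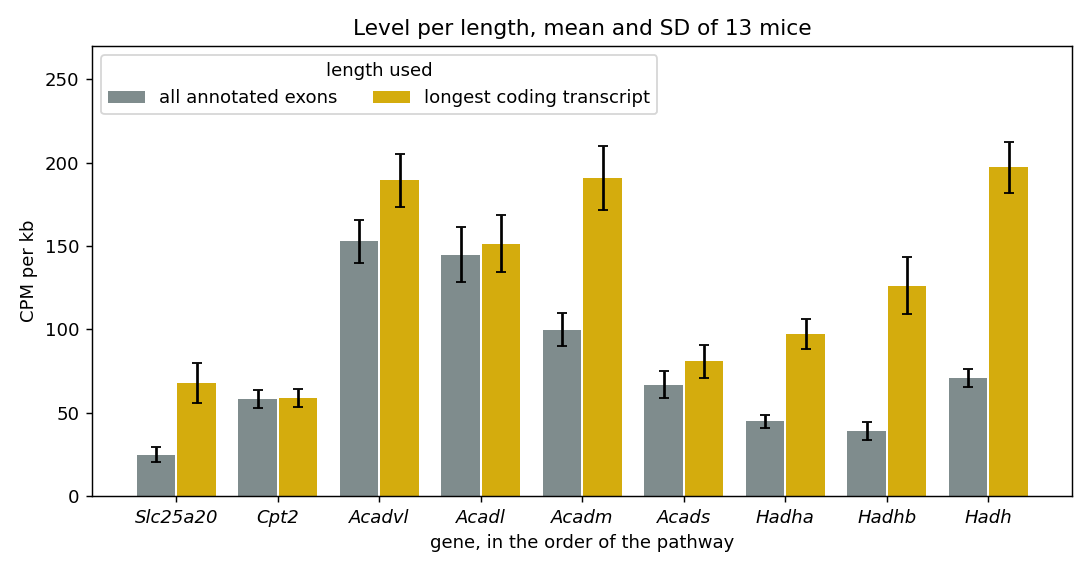
Mean CPM per kilobase of the 9 enzymes (y axis) in pathway order (x axis), with bars for the 2 gene lengths and error bars for the SD of 13 mice. The 3 dehydrogenases of longer chains are high by either length, while Hadh rises from 70.9 to 197 CPM per kb and the order of Hadha and Hadhb turns when the length changes.

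The first comparison, of ASAH+ with ASAH- Etoh-Dox mice, asks whether acid ceramidase expression goes with a different level of these enzymes when both groups receive Dox. In these 9 mice, 0 of the 9 genes passed the threshold of an adjusted p-value under 0.1 (edgeR quasi-likelihood test, Benjamini-Hochberg over all genes tested). Over all genes tested 0.014% passed, which were 2 genes, Asah1 among them. Of the 9, 0 had an unadjusted p under 0.05 (2.86% of all genes did), and DESeq2 and limma-voom called 0 as well. Over all genes, DESeq2 on all 13 mice called 12 of 28557 and limma-voom 2 of 14317. The adjusted p-value of each of the 9 was 1.00. The median log2 fold change of the 9 was -0.04, with 3 higher and 6 lower, and that of all genes was -0.00225. Members not overlapping between the groups numbered 0 of 9, against 0.887% of all genes tested. The 95% intervals differed in width between enzymes. That of Slc25a20 was the widest, from 0.726-fold to 1.18-fold, and those of Cpt2 (0.824 to 1.09) and Acadvl (0.908 to 1.20) were narrower, so the size of a difference left undetected differs by enzyme.

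The carrier Slc25a20 was measured at 96.8, 126, 120 and 162 CPM in ASAH- Etoh-Dox mice and at 131, 106, 123, 98.2 and 125 CPM in ASAH+ Etoh-Dox mice. Its ASAH+ mice lay within the range of the ASAH- mice, and its log2 fold change of -0.11 ± 0.16 (SE) was the lowest of the 9. Cpt2, which rebuilds acyl-CoA in the matrix, averaged 134 ± 14.5 CPM (SD, n = 5) in ASAH+ and 141 ± 7.78 (n = 4) in ASAH- mice. Acadvl averaged 414 ± 34.6 and 397 ± 32.2 CPM, and its log2 fold change of 0.06 ± 0.09 was the highest. Acadm averaged 386 ± 38.1 and 381 ± 49.7 CPM. For each of these 3 enzymes the difference between the means was smaller than the SD within either group.

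Hadha, the trifunctional alpha subunit, was measured at 341, 388, 371 and 444 CPM in ASAH- Etoh-Dox mice and at 396, 353, 397, 344 and 412 CPM in ASAH+ Etoh-Dox mice. Hadhb, the beta subunit, was measured at 216, 247, 236 and 334 CPM in the same ASAH- mice and at 263, 239, 280, 218 and 257 CPM in the same ASAH+ mice. For both subunits 1 ASAH- mouse, replicate 4, was above every ASAH+ mouse and another, replicate 1, was below every ASAH+ mouse. The log2 fold changes were -0.02 ± 0.10 (SE) for Hadha and -0.04 ± 0.13 for Hadhb. Without replicate 4 of the ASAH- mice, the median of the 9 log2 fold changes turned from -0.04 to 0.05, and without replicate 4 of the ASAH+ Etoh-Dox mice it turned to 0.0094, so the direction of the median rests on single mice. Hadh averaged 354 ± 24.9 CPM (SD, n = 5) and 352 ± 45.7 (n = 4), a log2 fold change of 0.01 ± 0.09.

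**Figure D2:**
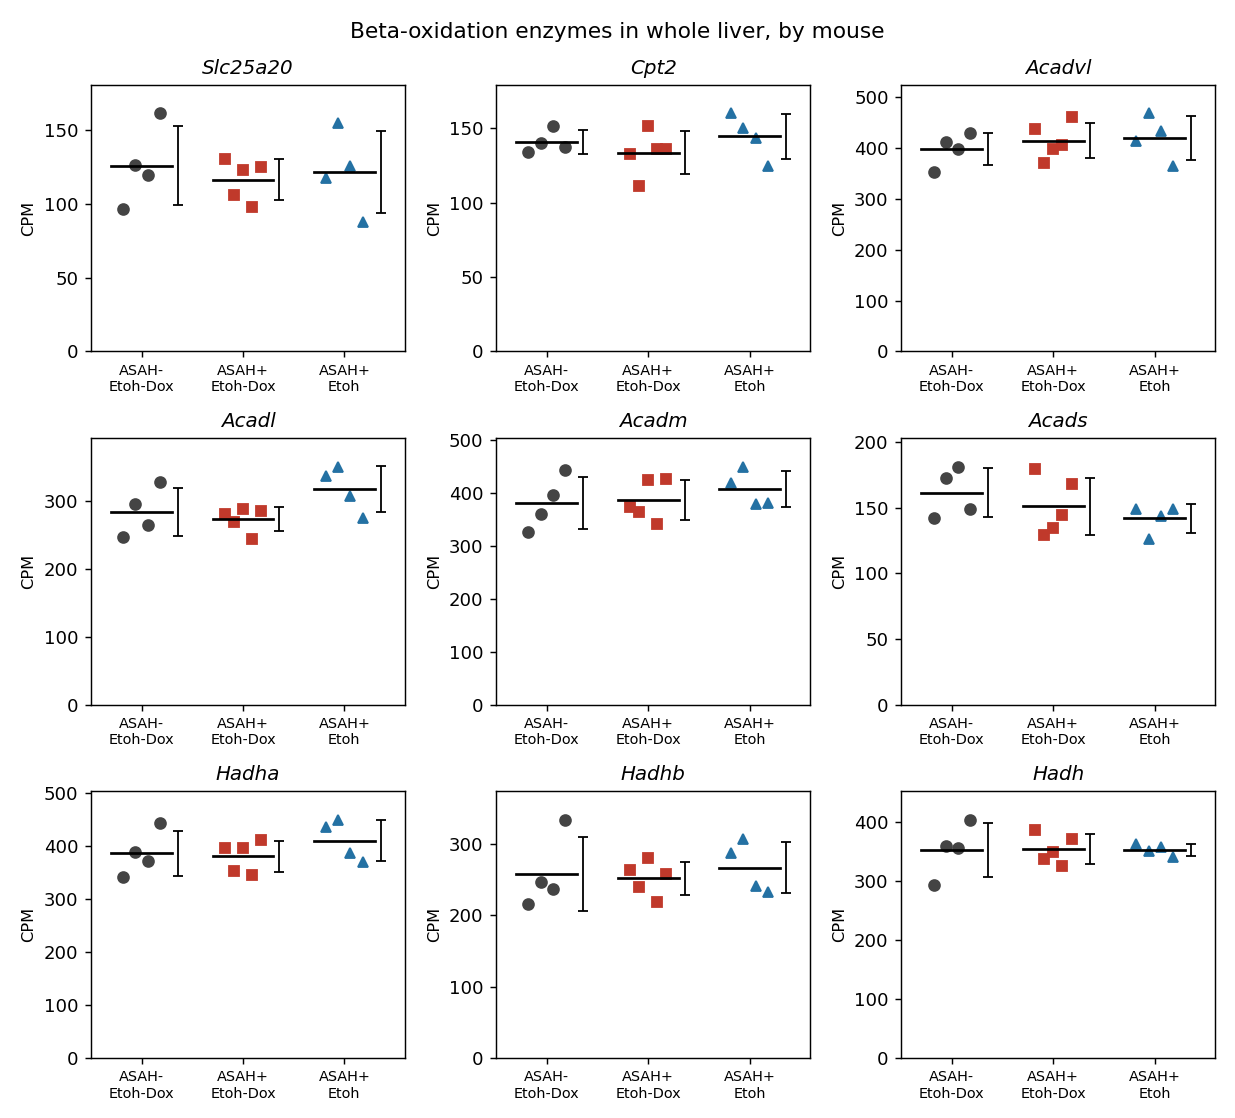
CPM of each enzyme (y axis from 0, 1 panel a gene) in every mouse of the 3 groups (x axis), with points for mice, lines for group means and error bars for the SD. In every panel the groups overlap, and for Acadl 3 of the 4 ASAH+ Etoh mice lie above all mice of the ASAH+ Etoh-Dox group.

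The second comparison, of ASAH+ mice with and without Dox, holds the genotype fixed, so that transgene induction and any effect of Dox itself cannot be told apart. Of the 9 genes, 0 passed the threshold in edgeR, DESeq2 or limma-voom, and 1 had an unadjusted p under 0.05 in edgeR (7.29% of all genes did). Of all genes tested, 0.014% passed in edgeR (2 genes). DESeq2 on all 13 mice called 98 of 28557 genes and limma-voom 2 of 14317. The median log2 fold change of the 9 (Etoh-Dox over Etoh) was -0.08, with 2 higher and 7 lower, and that of all genes was 0.01. The groups did not overlap for 0 of the 9 genes, against 2.58% of all genes tested. The lowest bound of a 95% interval was 0.744-fold, for Acadl, and the highest was 1.26-fold, for Acads.

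Acadl, the long-chain dehydrogenase, was the only one of the 9 with an unadjusted p under 0.05. It was measured at 281, 269, 288, 244 and 286 CPM in ASAH+ Etoh-Dox mice and at 337, 351, 307 and 275 CPM in ASAH+ Etoh mice. Of the 4 mice without Dox, 3 were above all 5 mice with Dox, and replicate 4, at 275 CPM, fell among them. The log2 fold change was -0.21 ± 0.10 (SE; 95% interval -0.43 to -0.0017), with an adjusted p of 0.678 in edgeR, which fails the correction. Over 24 alternative fits the log2 fold change of Acadl stayed between -0.29 and -0.16 and its adjusted p between 0.293 and 0.927, and its unadjusted p was under 0.05 in 11 of the 24. It was not under 0.05 with limma-voom, no count filter, the replicate block or the Dbp to Arntl covariate, nor in 9 of the 13 fits with a mouse left out. Without replicate 4 of the ASAH+ Etoh mice the groups no longer overlapped for Acadl, and without that mouse they did not overlap for 5.46% of all genes tested.

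The other dehydrogenases had smaller differences in this comparison, with log2 fold changes of -0.02 ± 0.09 (SE) for Acadvl, -0.08 ± 0.10 for Acadm and 0.09 ± 0.11 for Acads. Acads averaged 151 ± 21.7 CPM (SD, n = 5) with Dox and 142 ± 10.9 (n = 4) without, the only member besides Hadh whose mean was higher with Dox. Hadha averaged 380 ± 29.7 CPM with and 410 ± 38.2 without Dox, Hadhb 252 ± 23.7 and 267 ± 36.2. Both subunits were thus lower on average with Dox by less than 1 SD of the mice without it. Cpt2 had a log2 fold change of -0.11 ± 0.09, and Slc25a20 of -0.06 ± 0.16. The carrier had the widest interval of the 9 in this comparison, from 0.752-fold to 1.22-fold.

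The third comparison, of ASAH- Etoh-Dox mice with ASAH+ Etoh mice, contrasts 2 groups with Asah1 at its uninduced level that differ in genotype and in Dox together. Here too 0 of the 9 genes passed the threshold in edgeR, DESeq2 or limma-voom, against 0.014% of all genes tested in edgeR (2 genes). DESeq2 on all 13 mice called 149 of 28557 genes and limma-voom 1 of 14317. An unadjusted p under 0.05 in edgeR was found for 0 of the 9 and for 9.19% of all genes. The median log2 fold change (ASAH- over ASAH+) was -0.05, with 3 higher and 6 lower, against 0.02 over all genes. The groups did not overlap for 0 of 9 genes, against 5.5% of all genes tested. The lowest bound of a 95% interval was 0.766-fold, for Acadl, and the highest was 1.35-fold, for Acads. All 3 comparisons share their groups pairwise, so their values are not independent of each other.

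Acads and Acadl, which stand at the ends of the range in this comparison, had log2 fold changes of opposite sign. Acads, the short-chain dehydrogenase, was measured at 142, 173, 181 and 149 CPM in ASAH- Etoh-Dox mice and at 149, 126, 144 and 149 CPM in ASAH+ Etoh mice, a log2 fold change of 0.18 ± 0.12 (SE; adjusted p = 0.676 in edgeR). Replicate 1 of the ASAH- mice lay within the range of the ASAH+ mice, and replicate 4 was level with their highest mouse (148.996 against 148.943 CPM). Acadl was measured at 247, 295, 266 and 328 CPM in the ASAH- mice, against the 275 to 351 CPM given above, a log2 fold change of -0.16 ± 0.10 (adjusted p = 0.682 in edgeR). Hadh differed least of the 9, with 352 ± 45.7 CPM (SD, n = 4) in ASAH- and 352 ± 9.66 (n = 4) in ASAH+ mice. Its direction changed with the setting in all 3 comparisons.

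**Figure D3:**
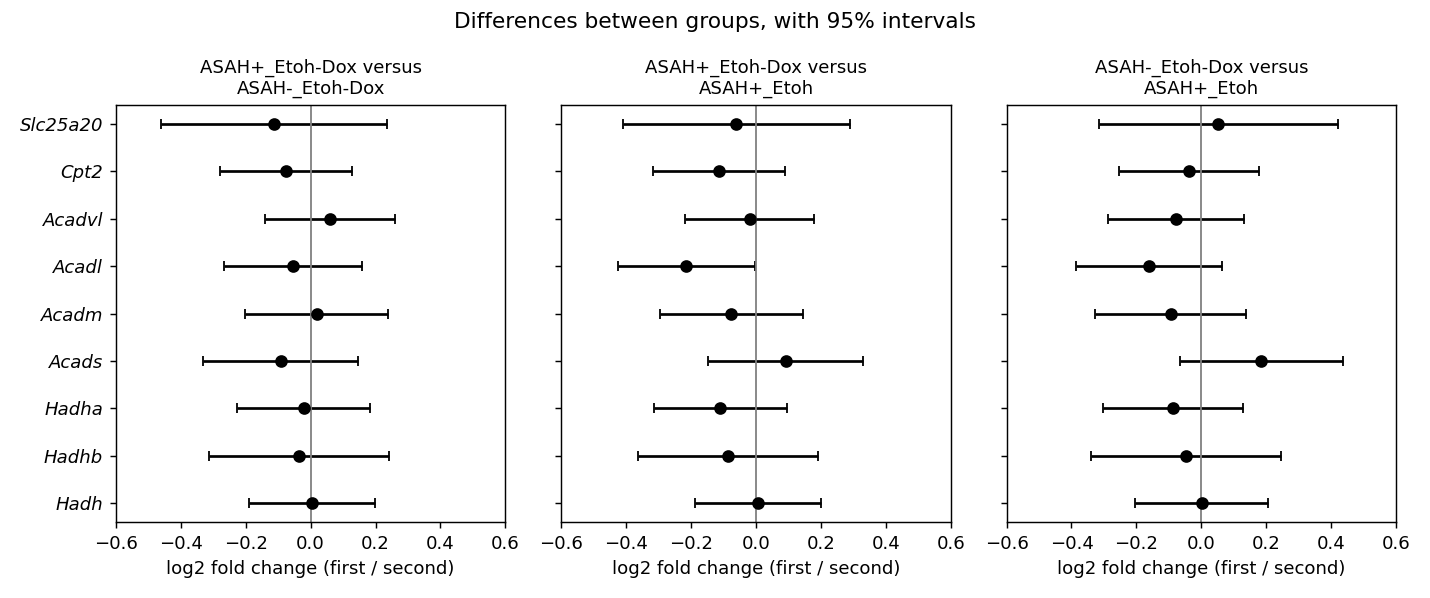
Log2 fold changes (x axis) of the 9 enzymes (y axis) in the 3 comparisons, as points with 95% intervals from the edgeR fit over 13 mice. Every interval includes 0 except that of Acadl between ASAH+ Etoh-Dox mice and on Etoh, which ends at -0.0017.

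The levels of most of these enzymes varied together from mouse to mouse. The values were log2 CPM, and every correlation is a description over 13 mice that share library preparation and scaling to library size. Over the 36 pairs of the 9 genes the median Pearson's r was 0.64 (median Spearman's rho 0.62), and 22 pairs (61.1%) had an r above 0.5. Among all pairs of the genes with a mean log2 CPM above 5, 10.9% had an r above 0.5 and the median r was 0.03. With each group's mean subtracted, the median over the 36 pairs was 0.70, so the covariation was as strong within groups as across them.

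Hadha and Hadhb had an r of 0.93 (rho = 0.96), second of the 36 pairs, and 0.91 without the 2 mice whose Hadha was farthest from its median. The log2 difference between the subunits varied by an SD of 0.08 over mice, less than either Hadha (SD 0.13) or Hadhb (SD 0.19) alone. The highest r, 0.94 (rho = 0.88), was between Hadha and Acadl, which lie on different chromosomes. Next came Hadha with Acadm (0.89, rho = 0.86) and Acadm with Hadhb (0.87, rho = 0.78). The carrier Slc25a20 had an r of 0.84 with Hadhb and 0.82 with Hadha, and it was the most variable of the 9, with an SD of 0.25 in log2 CPM, above that of 78.2% of genes of this level. Among the 21 pairs without Acads and Cpt2, r ran from 0.60 to 0.94. Some of these pairs rested on few mice: without the 2 mice farthest from the median of Acadvl, its r was lower, going from 0.65 to 0.39 with Acadl, from 0.64 to 0.36 with Acadm and from 0.60 to 0.38 with Hadhb. The same was done for every pair, without the 2 mice farthest from the median of its first gene in pathway order. The median of the 36 pairs was then 0.52 and that of the 21 was 0.78. These values depend on which gene of a pair is listed first.

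Acads had the lowest correlations over all 13 mice. Its 8 pairs had a median r of 0.02 (median rho 0.09), from -0.19 with Acadl to 0.41 with Hadh, and its r with the mean of the other 8 genes was 0.02 (rho = 0.03). This value pools the mice of all groups. Within groups, r of Acads was above 0 with all 8 genes in the 5 ASAH+ Etoh-Dox mice and with 7 of 8 in the 4 ASAH- Etoh-Dox mice. In the 4 ASAH+ Etoh mice it was above 0 with 1 of 8. These numbers of mice are too small to give an r or to test whether the groups differ. Without replicate 2 of the ASAH+ Etoh mice, in which Acads was lowest and most of the others were high, the r with the mean of the other 8 was 0.29 (rho = 0.31). With any other mouse left out it lay between -0.11 and 0.06. Acads nevertheless varied as much as the others, with an SD of 0.17 in log2 CPM, between 126 and 181 CPM. Cpt2 was in between, with a median r of 0.44 over its 7 pairs with members other than Acads, and an r of 0.49 (rho = 0.37) with the mean of the other 8. Hadha followed the mean of the other 8 most closely, with an r of 0.94 (rho = 0.98).

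**Figure D4:**
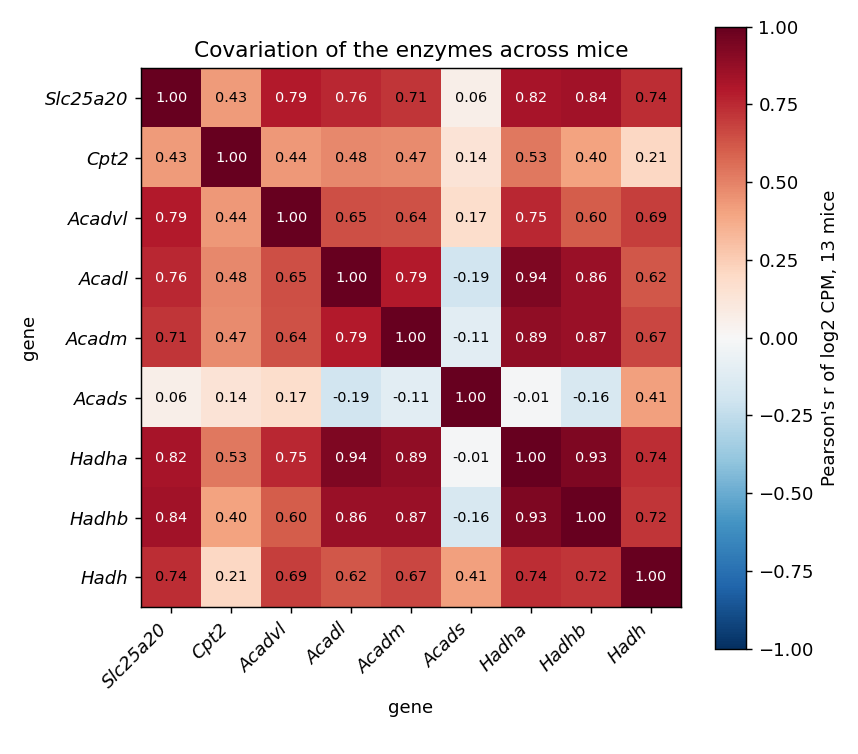
Pearson's r of log2 CPM over 13 mice for every pair of the 9 enzymes (both axes list the genes), with colour from -1 (blue) to 1 (red). Hadha has r of 0.74 to 0.94 with 6 of the genes and 0.53 with Cpt2, and the row of Acads runs from -0.19 to 0.41.

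The lowest mice came from all 3 groups and the highest from the ASAH- Etoh-Dox and ASAH+ Etoh groups. In 4 mice all 9 genes were below their own mean over mice: replicate 1 of the ASAH- Etoh-Dox mice, replicates 2 and 4 of the ASAH+ Etoh-Dox mice, and replicate 4 of the ASAH+ Etoh mice. The mean deviation of the 9 genes in these mice was -0.20, -0.15, -0.15 and -0.13 in log2 CPM. It was highest in replicate 4 of the ASAH- mice (0.18) and replicate 2 of the ASAH+ Etoh mice (0.15), in each of which 7 of the 9 genes were above their mean. Its highest value in an ASAH+ Etoh-Dox mouse was 0.07, and the highest level of each of the 9 genes was in a mouse of another group. Most of these highest levels came from 2 mice, replicate 2 of the ASAH+ Etoh mice (4 genes) and replicate 4 of the ASAH- mice (3 genes). The genes vary together, and the share over all genes was not determined. In replicate 2 of the ASAH+ Etoh mice, Acads had its lowest level of all mice while Slc25a20, Acadvl, Acadl and Acadm were at or near their highest. Group means of this deviation were 0.0016 ± 0.16 (SD, n = 4) in ASAH- Etoh-Dox mice, -0.03 ± 0.11 (n = 5) in ASAH+ Etoh-Dox mice and 0.03 ± 0.12 (n = 4) in ASAH+ Etoh mice, so the spread within each group was larger than the distance between them.

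**Figure D5:**
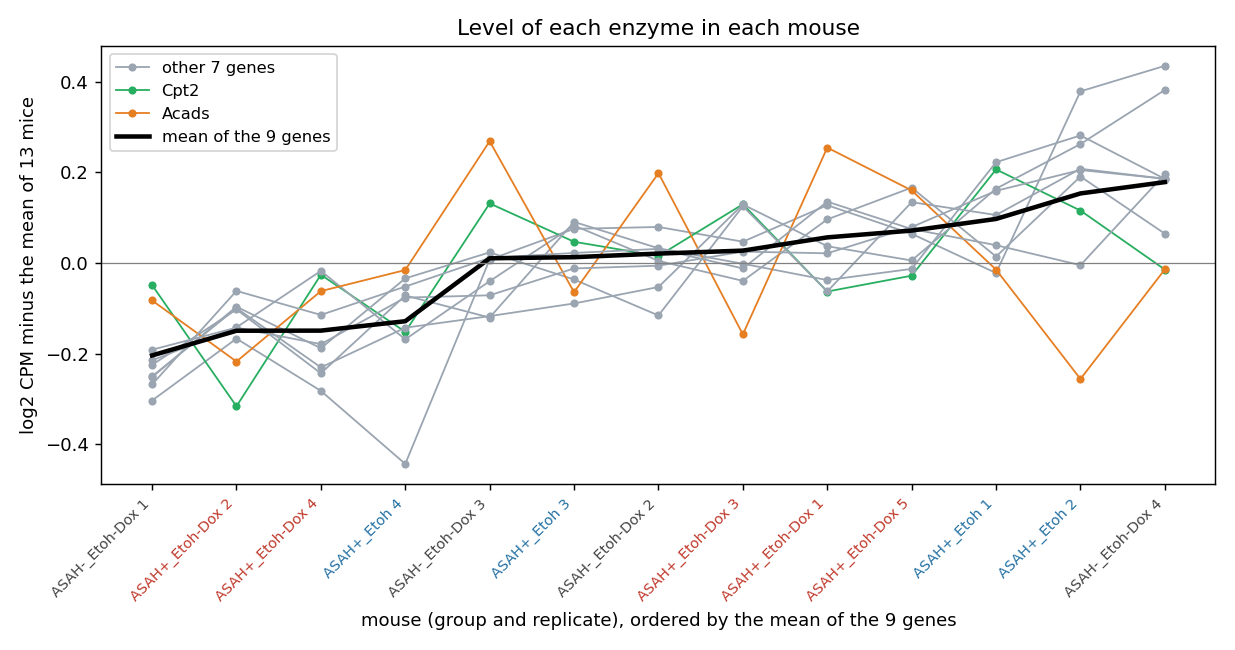
Log2 CPM of each enzyme minus its mean over 13 mice (y axis), with mice ordered by the mean of the 9 genes (x axis, labels coloured by group) and the mean as a thick line. The 4 mice on the left are below 0 for all 9 genes and belong to all 3 groups, and Acads departs from the line, most in replicate 2 of the ASAH+ Etoh mice.

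Other measures moved with this mean deviation of the 9 genes over the 13 mice. The share of counts from mitochondrially encoded genes, 5.76 to 7.90% of a library, had an r of -0.63 with it (rho = -0.63, and -0.49 without the 2 mice farthest from the median). Ppara, which encodes PPARalpha, had an r of 0.59 (rho = 0.59, and 0.54 without those mice), and the log2 ratio of the clock genes Dbp and Arntl, which ran from -1.64 to 6.78, had an r of 0.49 (rho = 0.31, and 0.60). For marker lists of other cell types, r was -0.69 (rho = -0.62) for the 5 cholangiocyte markers, which summed to 36.2 to 78.8 CPM in ASAH- Etoh-Dox mice, 31.3 to 49.4 in ASAH+ Etoh-Dox mice and 38.5 to 50.3 in ASAH+ Etoh mice. Spp1 made up 84.5% to 90.7% of their counts (639 to 1537 per mouse), while Krt19, Krt7, Epcam and Sox9 had at most 40, 25, 59 and 88 counts. For Spp1 alone r was -0.67, and for the other 4 summed it was -0.75. Without the 2 mice farthest from the median, r was -0.50 for all 5, -0.42 for Spp1 and -0.74 for the other 4. The r was -0.62 (rho = -0.49, and -0.50 without the 2 farthest mice) for the 4 adipose and pancreas markers. They summed to 5.39 to 11.5 CPM, with Adipoq, Plin1 and Prss2 at 3 counts or fewer in every mouse. For the hepatocyte, Kupffer cell, sinusoidal endothelium, stellate cell, T and B cell and red cell lists, r lay between -0.16 and 0.09. Some of these measures differed between the groups compared. The 6 stellate cell markers summed to 389 to 435 CPM in ASAH- Etoh-Dox mice, 328 to 382 in ASAH+ Etoh-Dox mice and 320 to 376 in ASAH+ Etoh mice, so the ASAH- mice did not overlap with either other group. The 5 red cell markers summed to 136 to 187 CPM in ASAH+ Etoh mice, below the 216 to 1686 of ASAH- Etoh-Dox and the 254 to 857 of ASAH+ Etoh-Dox mice. The mitochondrially encoded share was 7.33 to 7.90% in ASAH- Etoh-Dox mice and 5.76 to 7.22% in ASAH+ Etoh mice, without overlap, and 6.83 to 7.60% in ASAH+ Etoh-Dox mice. Library totals had an r of 0.33 (rho = 0.26), and 0.61 with group means subtracted. With the Dbp to Arntl ratio as a covariate, 0 of the 9 genes passed the threshold in each of the 3 comparisons. Of all 14317 genes tested in this fit, 2 passed in the first comparison, 2 in the second and 1 in the third. A count of 0 of 9 therefore does not set the 9 genes apart from other genes. Their median log2 fold change was -0.01 in the first comparison (ASAH+ over ASAH- Etoh-Dox mice). It was -0.04 in the second (ASAH+ Etoh-Dox over ASAH+ Etoh mice) and -0.05 in the third (ASAH- Etoh-Dox over ASAH+ Etoh mice). The part of the other measures in the comparisons, and of any of them in the covariation, was not tested.

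The genes outside the 9 with the most similar pattern were ranked by r with the mean deviation among 3580 genes with a mean log2 CPM above 5. Acot1, a cytosolic thioesterase that releases fatty acids from acyl-CoA, came first with an r of 0.95 (rho = 0.95, and 0.94 without the 2 farthest mice). It ranged over mice more widely than any of the 9, from 24.3 to 110 CPM: it was at 30.95, 62.7, 62.4 and 103 CPM in ASAH- Etoh-Dox mice, at 68.3, 34.4, 63.7, 39.6 and 84.2 CPM in ASAH+ Etoh-Dox mice, and at 83.2, 110, 51.6 and 24.3 CPM in ASAH+ Etoh mice. The 4 mice with all 9 enzymes below their mean were also the 4 lowest for Acot1. Acad11, an acyl-CoA dehydrogenase (r = 0.90, rho = 0.89), Hsdl2 (r = 0.89, rho = 0.92), Psmd12, a proteasome subunit (r = 0.88, rho = 0.84), and Ech1, a dienoyl-CoA isomerase (r = 0.87, rho = 0.89), followed. The lowest r belonged to Edem2 (-0.76, rho = -0.71), which acts in the degradation of misfolded proteins of the endoplasmic reticulum, the mitochondrially encoded complex I subunit mt-Nd1 (-0.75, rho = -0.63) and Aff1 (-0.75, rho = -0.61).

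Of 65 other genes of fatty acid oxidation, 52 were high enough to be ranked, and 27 of them (51.9%) had an r above 0.5 with the mean of the 9, against 13.6% of all genes ranked. The 18 ranked peroxisomal genes had the highest median r of the lists, 0.69, and 12 were above 0.5, with Ehhadh, the peroxisomal bifunctional enzyme, at 0.85. Of 10 ranked genes for other mitochondrial steps, 5 were above 0.5, with Decr1, the dienoyl-CoA reductase, at 0.87 and the thiolase Acaa2 at 0.75. Of 10 genes for fatty acid activation and carnitine, 5 were above 0.5, including the carnitine transporter Slc22a5 at 0.86 and Cpt1a, the rate-limiting acyltransferase of the outer membrane, at 0.55. The 4 ketogenesis genes had a median r of 0.52, the 4 ranked electron transfer genes 0.32 and the 6 ranked regulators 0.17. Not all followed: 9 of the 52 had an r below 0, against 1543 of the 3580 genes ranked. The lowest were Lpin1 (-0.51), a phosphatidate phosphatase and coregulator, Acad9 (-0.47), an assembly factor of complex I in the acyl-CoA dehydrogenase family, the peroxisomal reductase Pecr (-0.42) and the acyl-CoA synthetase Acsl5 (-0.39). These genes were described over the same 13 mice, and no test was made of the lists.

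Between groups, 0 of the 65 genes passed the threshold in each of the 3 comparisons, in either direction, with edgeR, DESeq2 or limma-voom. Between ASAH+ and ASAH- Etoh-Dox mice, 2 of the 65 had an unadjusted p under 0.05 (3.08%, against 2.86% of all genes). Hsd17b10, a mitochondrial hydroxyacyl-CoA dehydrogenase, was at 54.7 to 68.2 CPM in ASAH+ and 66.1 to 86.8 in ASAH- mice, with a log2 fold change of -0.30 ± 0.11 (SE; adjusted p = 1.00 in edgeR). Acsm5, a medium-chain acyl-CoA synthetase, was at 112 to 145 and 95.6 to 120 CPM, a log2 fold change of 0.24 ± 0.09. For both genes the groups overlapped at their edges. Etfbkmt, a methyltransferase of the electron transfer flavoprotein, came next by p, with a log2 fold change of 0.48 ± 0.24.

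Between ASAH+ mice with and without Dox, 4 of the 65 had an unadjusted p under 0.05 (6.15%, against 7.29% of all genes). Acsm5 was again among them, at 112 to 145 CPM with and 95.4 to 113 CPM without Dox (log2 fold change 0.29 ± 0.09, adjusted p = 0.536 in edgeR). Acsl5, a long-chain acyl-CoA synthetase, had a log2 fold change of 0.30 ± 0.13, at 408 to 647 CPM with and 364 to 440 CPM without Dox, so the groups overlapped. Between ASAH- Etoh-Dox mice and ASAH+ Etoh mice, 1 of the 65 had a p under 0.05 (1.54%, against 9.19% of all genes): Acadsb, the dehydrogenase of short branched chains, with a log2 fold change of -0.18 ± 0.08 (adjusted p = 0.514 in edgeR). Fgf21, a hormone the liver releases in fasting, had a log2 fold change of 0.95 ± 0.44 at 2.43 to 6.65 against 0.603 to 3.18 CPM, and the peroxisomal enzyme Hsd17b4 one of -0.21 ± 0.10.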

How the data were processed

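RNaseq of 13 whole livers was analysed. Libraries were poly(A)-selected and strand-specific. The authors quantified transcripts of GRCm38.p6 with salmon and used tximport to obtain 1 value a gene. The deposited values for 53392 genes are estimated counts, all whole numbers and unscaled. Salmon splits ambiguous reads by estimated abundance, so copies and overlapping genes are uncertain. Totals were 17819486 to 35358711 counts, and intervals for counting cover that error only. GENCODE M21 matched 53355 identifiers. Groups came from the sample descriptions, and replicates are separate mice.

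The members and gene lists were chosen with earlier results of these data known. Genes were kept by edgeR's filter (14317), scaled by TMM and fitted in R 4.3.3 with edgeR 4.0.16 (robust quasi-likelihood, 3 group means, 13 mice). P-values were adjusted over all genes tested by the Benjamini-Hochberg method, with 0.1 as threshold. Intervals of 95% were the log2 fold change ± the t quantile times SE. CPM used TMM-scaled totals, and log2 CPM a prior count of 2. Of the other pathway genes, those called and the 3 with the smallest p per comparison were named, and of genes by likeness the 5 highest and 3 lowest r to the members' mean. Some genes that these rules would name are not reported here. Asah1 was named as the check of the labels. Pathway genes with high r were named after their values were seen. Alternatives were DESeq2 1.42.0, limma-voom (limma 3.58.1), DESeq2's size factors, fits of the groups compared, other count filters (none, or at least 10 counts in every mouse), Asah1 out of the totals, dispersion without the robust option, a replicate block, the Dbp to Arntl ratio as a covariate, an adjusted p under 0.05 and each mouse left out (13 fits). Replicates of a group were different libraries, with 18.4 to 104 as chi-square per degree of freedom over 22 pairs.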

Additional observations from a re-analysis of the deposited data

How the results depend on the processing

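In every one of the 75 combinations of setting and comparison, 0 of the 9 enzymes passed the threshold. DESeq2 on all 13 mice called 12, 98 and 149 genes in the 3 comparisons (ASAH+ and ASAH- Etoh-Dox mice, ASAH+ mice with and without Dox, ASAH- Etoh-Dox mice and ASAH+ Etoh mice, in this order), and DESeq2 on the groups compared 11, 114 and 168, against 2 in each with edgeR; edgeR on the groups compared called 1, 3 and 0. For the median of the 9 enzymes the range with a mouse left out was -0.09 to 0.05, -0.15 to -0.01 and -0.13 to -0.01. The depth, at 1519 counts or more per enzyme and mouse, limits these values less than the spread between mice.

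Replicate numbers belong to different mice. Deviations from the group means had a mean correlation of -0.05 over 12 same-numbered pairs (from -0.26 to 0.19) and 0.01 over 44 others. So few pairs cannot tell whether some mice shared a litter, cage or day. The paper states that littermates of both genotypes were used and that mice were pair-fed, but the labels do not name such pairs. With the replicate number as a block edgeR called 1, 2 and 0 genes, and the enzymes whose sign turned were Acadm (-0.019) and Hadh (-0.010) in the first comparison, Hadh (-0.011) in the second and Hadh (-0.0011) in the comparison of ASAH- Etoh-Dox with ASAH+ Etoh mice. With the Dbp to Arntl covariate, Acadvl (0.011) and Slc25a20 (0.022) turned in the second comparison. Hadh also turned in the second comparison with Asah1 out of the totals (-0.0011), DESeq2's size factors (-0.0048), DESeq2 on the groups compared (-0.0040) and DESeq2 on all mice (-0.0058). Between ASAH- Etoh-Dox and ASAH+ Etoh mice it turned with Asah1 out of the totals (-0.015), DESeq2's size factors (-0.013), DESeq2 on the groups compared (-0.016), DESeq2 on all mice (-0.016), edgeR on the groups compared (-0.0079), limma-voom (-0.0090) and no count filter (-0.0048). The cause was not tested.

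With a mouse left out, log2 fold changes that turned ranged as follows. In the first comparison they were -0.11 to 0.024 for Acadl, -0.040 to 0.099 for Acadm, -0.067 to 0.076 for Hadh, -0.068 to 0.052 for Hadha, -0.11 to 0.11 for Hadhb and -0.21 to 0.029 for Slc25a20. In the second they were -0.089 to 0.036 for Acadvl, -0.038 to 0.035 for Hadh and -0.20 to 0.079 for Slc25a20. Between ASAH- Etoh-Dox and ASAH+ Etoh mice they were -0.12 to 0.014 for Cpt2, -0.071 to 0.065 for Hadh, -0.20 to 0.026 for Hadhb and -0.092 to 0.19 for Slc25a20. The number of enzymes whose groups did not overlap ranged from 0 to 1 in the comparisons with ASAH+ Etoh mice, with Acadl apart without replicate 4 of the ASAH+ Etoh mice (as were 5.46% of all genes tested) and Acads apart, by 148.996 against 148.943 CPM, without replicate 1 of the ASAH- mice (as were 9.94% of all genes tested).

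With the length of the longest coding transcript, which is shorter than the annotated exons combined, levels per kb moved by more than 1 SD to 191 for Acadm, 81.0 for Acads, 189 for Acadvl, 197 for Hadh, 97.4 for Hadha, 126 for Hadhb and 67.9 for Slc25a20. The summed level and the covariation (median r, with each mouse left out added after seeing the data, as for Acads alone) moved by less than their spread.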
